A study of Mus musculus with 2 samples.

Results

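The 10 genes described here encode secreted or shed chemokines that macrophages are known to make: Ccl2, Ccl3, Ccl4, Ccl5, Ccl6, Ccl7, Ccl9, Cxcl1, Cxcl2 and Cxcl16. They were taken by their GENCODE M21 symbols out of 55536 annotated genes, and all 10 were found by identifier in the gene table and by transcript in both transcript tables of each library. The RNA came from the chromatin fraction of macrophages cultured from C57BL/6J mouse bone marrow (BMDM), with 0 minutes of lipid A, whose dose was 100 ng/ml. Lipid A, the membrane anchor of endotoxin, is sensed by Toll-like receptor 4, and the 0-minute cells are the baseline of that stimulation. The chromatin fraction is rich in nascent and incompletely spliced RNA. Total RNA was sequenced after removal of ribosomal RNA, and 2 libraries of this single group were made, from 250 ng of RNA (replicate 1) and 500 ng (replicate 2). The labels call them biological replicates but give both the same donor entry, so whether they come from separate animals or cultures is not known, and their spread may be partly technical. With 1 group there is no condition to test, and no p-value is given.

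Chemokines are small proteins that guide leukocytes by binding G protein-coupled receptors on their surface. The CC and CXC families are named for the spacing of their conserved cysteines, and many genes of each family sit side by side in clusters that arose by gene duplication. In macrophages many of them are known as early or late targets of the transcription factor NF-kappaB after endotoxin, while others are made by resting cells. Ccl3, Ccl4 and Ccl5 are inflammatory CC chemokines that draw monocytes and T cells, and Ccl3 and Ccl5 bind Ccr1. Ccl6 and Ccl9 are rodent CC chemokines that act on Ccr1. Ccl2 and Ccl7 draw monocytes through Ccr2, and Cxcl1 and Cxcl2 draw neutrophils through Cxcr2. Cxcl16 is made as a membrane protein with a chemokine domain on a stalk, binds Cxcr6 once shed, and also acts as a scavenger receptor.

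RefSeq promoter windows on GRCm38.p6 were at hand for 5 of the 10 genes, Cxcl1, Cxcl2, Ccl9, Ccl6 and Ccl3, but not for Ccl2, Ccl4, Ccl5, Ccl7 or Cxcl16. They are shown because, in the gene table, they include the pair with the lowest levels below, Cxcl1 and Cxcl2, and 2 of the 3 genes with the highest, Ccl6 and Ccl3. Each is the 250 bases before the RefSeq start, written 5′ to 3′ on the gene's strand, and capitals mark matches on either strand to a kappaB-like motif (GGANNTTCC), a TATA-like motif (ATAAAAG) or an ETS core (GGAAGT). The Cxcl1 window is chr5:90890995-90891244 on the plus strand and the Cxcl2 window chr5:90903649-90903898 on the plus strand. The Ccl9 window is chr11:83578637-83578886, the Ccl6 window chr11:83593088-83593337 and the Ccl3 window chr11:83649379-83649628, all on the minus strand.
Cxcl1: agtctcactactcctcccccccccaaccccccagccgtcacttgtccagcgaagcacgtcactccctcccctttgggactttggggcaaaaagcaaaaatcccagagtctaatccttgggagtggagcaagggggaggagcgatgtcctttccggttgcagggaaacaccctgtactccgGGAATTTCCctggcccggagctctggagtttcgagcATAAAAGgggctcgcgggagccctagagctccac
Cxcl2: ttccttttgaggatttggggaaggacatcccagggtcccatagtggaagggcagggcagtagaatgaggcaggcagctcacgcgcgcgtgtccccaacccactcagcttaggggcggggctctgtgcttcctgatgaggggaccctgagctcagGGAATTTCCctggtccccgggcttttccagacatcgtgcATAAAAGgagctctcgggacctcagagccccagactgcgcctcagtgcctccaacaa
Ccl9: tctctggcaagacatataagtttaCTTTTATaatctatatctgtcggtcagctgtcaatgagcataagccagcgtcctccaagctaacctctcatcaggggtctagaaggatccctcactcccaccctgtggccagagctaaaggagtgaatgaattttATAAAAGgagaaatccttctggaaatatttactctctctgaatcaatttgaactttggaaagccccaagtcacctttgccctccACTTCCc
Ccl6: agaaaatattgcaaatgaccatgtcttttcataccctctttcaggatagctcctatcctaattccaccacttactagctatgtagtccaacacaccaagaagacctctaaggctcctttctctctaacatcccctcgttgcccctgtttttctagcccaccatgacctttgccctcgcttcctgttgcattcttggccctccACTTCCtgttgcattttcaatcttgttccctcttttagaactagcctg
Ccl3: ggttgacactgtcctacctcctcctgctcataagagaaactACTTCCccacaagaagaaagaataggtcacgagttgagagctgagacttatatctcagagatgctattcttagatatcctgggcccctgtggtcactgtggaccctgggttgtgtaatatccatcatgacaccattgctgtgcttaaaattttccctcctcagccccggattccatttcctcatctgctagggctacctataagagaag

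The motifs were chosen after these sequences were seen, and a match is a description of letters, not of a bound site. The kappaB-like motif was in the windows of Cxcl1 and Cxcl2 and in 3.59% of 32851 promoters of the same length. It begins 70 bases before the RefSeq start in Cxcl1 and 96 bases before it in Cxcl2. Both windows run past the GENCODE gene starts, at 90891241 and 90903871, so these distances hold for the RefSeq starts alone. The match lies in the longest run that the 2 windows share, GGGAATTTCCCTGG, 14 bases. The TATA-like motif was in the windows of Cxcl1, Cxcl2 and Ccl9 and in 4.83% of all promoters. It stood 34 bases before the RefSeq start in Cxcl1, 57 in Cxcl2 and, on the plus strand of the window, 91 in Ccl9. The ETS core was in the windows of Ccl9, Ccl6 and Ccl3, each time as ACTTCC, its reverse complement, and in 19.7% of all promoters. Ccl6 and Ccl9, which lie next to each other, share a run of 13 bases, GCCCTCCACTTCC, that holds this core. Of the motifs not marked, TATAAA was in the Ccl9 window, where it overlaps the TATA-like matches, and in 12.4% of promoters. The AP-1 motif TGANTCA was in the Ccl9 window and in 6.75% of promoters. A shortened interferon response motif (GAAANNGAA, 7.13% of promoters) had a match in the Ccl3 window, 39 bases before the RefSeq start and on the minus strand of the window. A C/EBP-like motif (TTGCNNAA, 9.56%) had no match in the 5 windows.

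RNA of nearly every one of these genes was present before stimulation, from levels above the middle of expressed genes down to almost nothing. Levels are given as TPM, a transcript abundance that divides reads by transcript length and is scaled to a fixed sum per library, so that genes can be compared. At 1 TPM or more in both libraries, 9 of the 10 genes were detected, against 46.7% of 22015 nuclear protein-coding genes. Their median was 5.375 TPM in replicate 1 and 5.41 TPM in replicate 2 (5.39 ± 0.0247 TPM, SD, n = 2), while that of all nuclear protein-coding genes was 0.74 and 0.67 TPM. Against detected protein-coding genes alone, whose medians were 11.25 and 10.78 TPM, 3 of the 10, Ccl6, Ccl4 and Ccl3, stood higher in both libraries, and Cxcl16 did in replicate 1. Together the 10 genes held 832.7 and 1207.48 expected counts, or 0.00762% and 0.00852% of the counts on annotated genes. In such bulk RNA, fewer cells that make a transcript and less of it per cell cannot be told apart.

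Ccl3, Ccl4 and Ccl6, all CC chemokines of the same cluster, were the highest of the 10 in the gene table. Ccl6 (chromosome 11, 83587882 to 83593087, minus strand) had 20.4 TPM in replicate 1 and 19.2 TPM in replicate 2, from 146 and 193 expected counts (19.8 ± 0.834 TPM, SD, n = 2). Its place rests on short transcripts: the protein-coding Ccl6-201 had only 7.97 and 7.21 TPM in the first transcript table. The rest was on Ccl6-202 and Ccl6-203, annotated as retaining an intron and 776 and 442 bases long. Ccl4, also known as MIP-1 beta (chromosome 11, 83662584 to 83664683, plus strand), had 17.5 and 21.1 TPM, from 76 and 136 counts (19.3 ± 2.55 TPM). Ccl3, or MIP-1 alpha (chromosome 11, 83647844 to 83649355, minus strand), had 14.5 and 19.4 TPM, from 79 and 157 counts (16.9 ± 3.46 TPM). The libraries of these genes overlap: Ccl6 was above Ccl4 in 1 library of 2, and Ccl4 was above Ccl3 in both, with overlapping ranges. Their order is not resolved. By mean TPM, Ccl6, Ccl4 and Ccl3 ranked 3277, 3365 and 3732 among the 22015 nuclear protein-coding genes, and they held 63.6% and 66.9% of the summed TPM of the 10 genes.

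The other genes of that cluster were lower in the gene table. Ccl9, a rodent chemokine that acts on Ccr1 (chromosome 11, 83572919 to 83578636, minus strand), had 6.70 and 6.32 TPM, from 192 and 271 counts (6.51 ± 0.269 TPM, SD, n = 2). In counts it was above Ccl6 in both libraries, yet below it in TPM, as the transcript that held its counts is 3006 bases long and those of Ccl6 between 442 and 1440 bases. Ccl5, or RANTES (chromosome 11, 83525778 to 83530518, minus strand), was much lower at 2.17 and 3.10 TPM, from only 9 and 19 counts (2.635 ± 0.658 TPM). All 5 of these CC genes lie within 138906 bases of chromosome 11, and inside this cluster the mean of Ccl6 was 4.14 times that of Ccl5 by the second transcript table and 7.53 times by the gene table. The cluster held 74.4% and 77.5% of the summed TPM of the 10 genes. The protein-coding gene on its left, Heatr9, 3603 bases away, had 0.06 TPM in replicate 1 and none in replicate 2, and the gene on its right, Wfdc17, had 6.24 and 4.45 TPM.

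**Figure D1:**
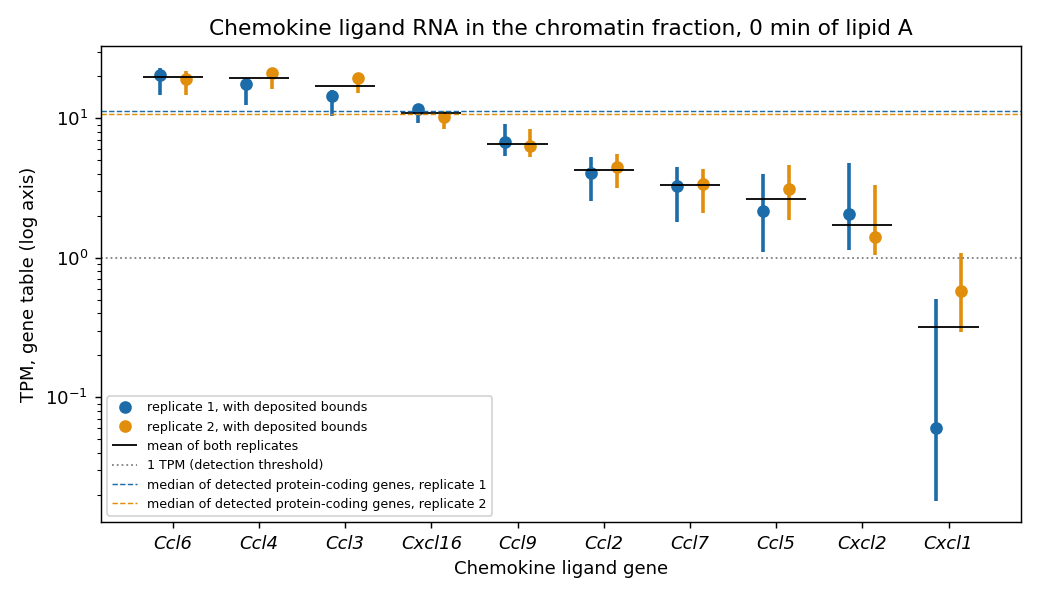
TPM in the gene table on a log axis for the 10 chemokine ligand genes, with a point for each library, a vertical bar for the bounds deposited with it and a short black line for the mean of both. Ccl6, Ccl4 and Ccl3 lie above the dashed lines at 11.25 and 10.78 TPM, the medians of detected protein-coding genes, and Cxcl1 is the gene below the dotted line at 1 TPM in both libraries.

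The ligands of Ccr2, which recruit monocytes, were present at a few TPM. Ccl2, or MCP-1 (chromosome 11, 82035571 to 82037453, plus strand), had 4.05 and 4.50 TPM, from 31 and 50 counts (4.275 ± 0.318 TPM, SD, n = 2). Ccl7, or MCP-3 (chromosome 11, 82045712 to 82047525, plus strand), had 3.27 and 3.36 TPM, from 19 and 29 counts (3.315 ± 0.0636 TPM). In the gene table Ccl2 was above Ccl7 in both libraries, and the libraries' ranges did not overlap. The bounds deposited with the values, whose level is not stated, overlapped in both. In replicate 2 of the second transcript table Ccl7, at 5.34 TPM, was above Ccl2, at 5.26 TPM. They are neighbours within 11955 bases, and together held 8.89% and 8.81% of the summed TPM of the 10 genes. Ccl11, the next chemokine gene of that cluster, had no count in the gene table of either library, and Asic2 on the other side had none either. The second transcript table gave 18 and 14 counts to Ccl11 and 14 and 26 counts to Asic2.

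The neutrophil-attracting pair was the lowest. Cxcl2 (chromosome 5, 90903871 to 90905938, plus strand) had 2.05 and 1.41 TPM, from 21 and 31 counts (1.73 ± 0.453 TPM, SD, n = 2). Cxcl1 (chromosome 5, 90891241 to 90893115, plus strand) had 0.06 and 0.58 TPM, from 1 and 10 counts (0.32 ± 0.368 TPM), and was the gene not detected. Cxcl1 was below Cxcl2 in both libraries of the gene table, but the size of the gap is not fixed by so few counts: Cxcl2 was 1.40 and 1.47 times as high by the second transcript table, and 34.2 times in replicate 1 and 2.43 times in replicate 2 by the gene table. These are the genes whose windows above hold the kappaB-like motif, and they lie within 14698 bases. In the gene table, from Ccl9 through Ccl2, Ccl7, Ccl5 and Cxcl2 to Cxcl1, each gene was above the next in both libraries without overlapping ranges. The deposited bounds of Ccl2 and Ccl7, of Ccl7 and Ccl5, and of Ccl5 and Cxcl2 overlapped in both libraries. Those of Ccl9 and Ccl2, and of Cxcl2 and Cxcl1, overlapped in 1 library. In the second transcript table Ccl5, at 3.82 and 7.03 TPM, was above Ccl2 and Ccl7 in both libraries. There Ccl2 had 3.08 and 5.26 TPM and Ccl7 2.58 and 5.34 TPM. Cxcl1 and Cxcl2 rest on few reads. The 95% interval for counting error runs from 0.0253 to 5.57 counts for Cxcl1 in replicate 1 and from 4.80 to 18.4 in replicate 2. Of their neighbours on chromosome 5, Mthfd2l, a mitochondrial folate enzyme gene, had 5.60 and 8.81 TPM. The chemokine gene Cxcl15 had no count in the gene table, but 67.5 and 87.8 counts (1.47 and 1.98 TPM) in the second transcript table.

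For Cxcl2, the TPM and the counts moved in opposite ways between libraries. It had 1.92 RPM (reads scaled to the counts on annotated genes, with no use of length) in replicate 1 and 2.19 RPM in replicate 2, but 2.05 and 1.41 TPM. The effective length that the gene table gives it, by which TPM divides, was 988 bases in replicate 1 and 1415 bases in replicate 2. Cxcl2-202, a protein-coding transcript of 1859 bases, held 0.16 and 17.7 expected counts, and Cxcl2-203, a retained-intron transcript of 2066 bases, held 16.1 and 7.27.

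Cxcl16 was of middle level and had the most reads of the members in the gene table. The gene (chromosome 11, 70453983 to 70459984, minus strand) had 11.6 and 10.2 TPM, from 258.7 and 311.48 expected counts (10.9 ± 0.997 TPM, SD, n = 2). In the gene table it lay below Ccl3 and above Ccl9 in both libraries, and neither pair of libraries' ranges overlapped. The deposited bounds of Ccl3 and Cxcl16 overlapped in 1 library. In the second transcript table Cxcl16, at 9.52 and 13.0 TPM, was below Ccl9, at 17.6 and 28.2 TPM. Adam17 and Adam10, the membrane proteases that shed Cxcl16 from the cell surface, were at 31.7 and 26.4 TPM and at 13.4 and 11.4 TPM. The exons of Zmynd15, a gene on the opposite strand, overlap those of Cxcl16 over 552 bases. Zmynd15 had 3.84 and 3.72 TPM, and of the 2819 stretches of 31 bases in the Cxcl16 transcripts, 522 (18.5%) also occur, on either strand, in those of Zmynd15. The sources used here do not say whether strand was kept, so reads of the shared exons cannot be told apart. Med11, a Mediator subunit gene that lies 256 bases from Cxcl16, had 5.0 and 3.66 TPM.

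Sequence shared with other genes was small for the remaining members. Ccl2, Ccl3, Ccl4, Ccl7 and Cxcl1 had no stretch of 31 bases in common with a transcript of another gene. Cxcl2 shared 161 of 2121 (7.59%) with 1 gene, its paralog Cxcl3. Ccl9 shared 120 of 3015 (3.98%) with a total of 1918 genes, Ccl6 18 of 1762 (1.02%) and Ccl5 5 of 928 (0.539%). Of genes that overlap a member without shared exons, Gm17268 opposite Ccl2 had no count in either table, and E230016K23Rik, a non-coding gene opposite Ccl6, was given 69.6 and 99.2 counts by the second transcript table, against 6 and 3 by the gene table.

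The 2 libraries gave similar levels in scaled counts, but not in TPM of the second transcript table. There every gene was higher in replicate 2, such as Ccl7 at 2.58 and 5.34 TPM and Cxcl16 at 9.52 and 13.0 TPM. On scaled counts plus 0.5, the log2 ratio of replicate 2 over replicate 1 was between -0.24 (Cxcl16) and 0.55 (Ccl5) for the 9 genes that averaged 10 counts or more. None of the 9 differed by 2-fold or more, against 1.85% of the 11430 nuclear protein-coding genes with that many counts and 2.86% of all 15193 such genes. Ccl3 was higher in replicate 2, with a log2 ratio of 0.49 and a 95% counting interval of 0.09 to 0.90. Its cluster neighbour Ccl4 had a log2 ratio of 0.34 (-0.08 to 0.76), while Ccl6 had -0.10 (-0.42 to 0.22) and Ccl9 -0.005 (-0.28 to 0.27), both of which turn positive, to 0.03 and 0.12, when scaled by library size alone. Cxcl1, below the minimum of counts, had a log2 ratio of 2.40, with an interval of 0.006 to 8.26 on 1 and 10 counts, and of 0.12 by the counts of the second transcript table. The intervals cover counting error only, and the difference in RNA input between the libraries cannot be told apart from other differences between them.

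**Figure D2:**
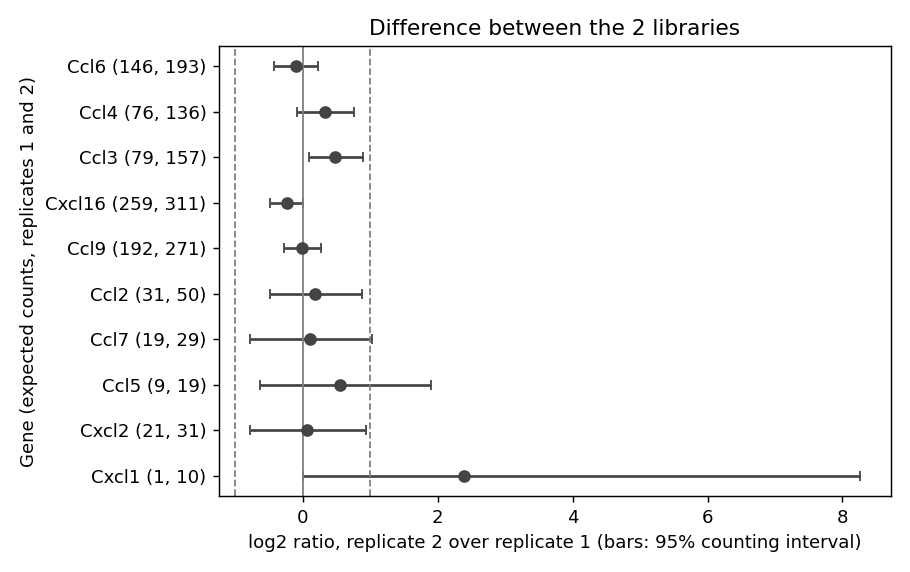
The log2 ratio of replicate 2 over replicate 1 on scaled expected counts plus 0.5, with 95% counting intervals as bars, for the 10 genes in order of mean TPM. Dashed lines mark a 2-fold difference, and the point for Cxcl1 at 2.40, with its wide bar, is the one past them.

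For several genes many of the reads were assigned to transcripts not annotated as protein-coding. Of the 10 genes, 7 have such a transcript in the annotation, usually a retained-intron transcript, which keeps an intron that the mRNA lacks. Ccl5 had a large share in both libraries: Ccl5-202, a retained-intron transcript, held 84.6% and 84.2% of its expected counts. These shares rest on only 9 and 19 counts, too few to call them steady. For Ccl2 the retained-intron transcript Ccl2-202 held 68.2% and 62.1%. Such transcripts held 32.2% and 30.7% of the counts of Ccl6 and, with a transcript marked for nonsense-mediated decay, 19.8% and 26.2% of those of Cxcl16. Over the 9086 protein-coding genes with such transcripts, the median share of counts was 31.1% and 30.2%. By this measure Ccl5 and Ccl2 were above the median and Cxcl16 below it in both libraries, with Ccl6 next to it. For Ccl5 and Cxcl16 the side of the median was the same in TPM: Ccl5 had 85.5% and 82.7% in the second transcript table and 78.9% and 78.4% in the first, and Cxcl16 49.2% and 53.3% in the second and 29.9% and 40.8% in the first. The medians of TPM shares were 60.3% and 60.1% in the second transcript table and 53.2% and 52.4% in the first. Ccl2, with 52.6% and 42.6% in the second transcript table and 58.9% and 52.2% in the first, was below the median in both libraries of the second and in replicate 2 of the first.

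Cxcl1 and Cxcl2 had shares that did not hold between libraries. The share on non-coding transcripts was 83.2% and 23.5% of the counts for Cxcl2, and 100% and 64.1% for Cxcl1, from the few counts given above. Short transcripts weigh more in TPM than in counts, and the share of Ccl6 in TPM, 74.8% and 76.8% in the second transcript table and 61.0% and 62.5% in the first, was above the medians of both tables. Ccl3, Ccl4 and Ccl7 have a single annotated transcript, so unspliced RNA of these genes has no entry of its own in the tables. Ccl9 had all its counts on the protein-coding Ccl9-201 in the first transcript table.

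**Figure D3:**
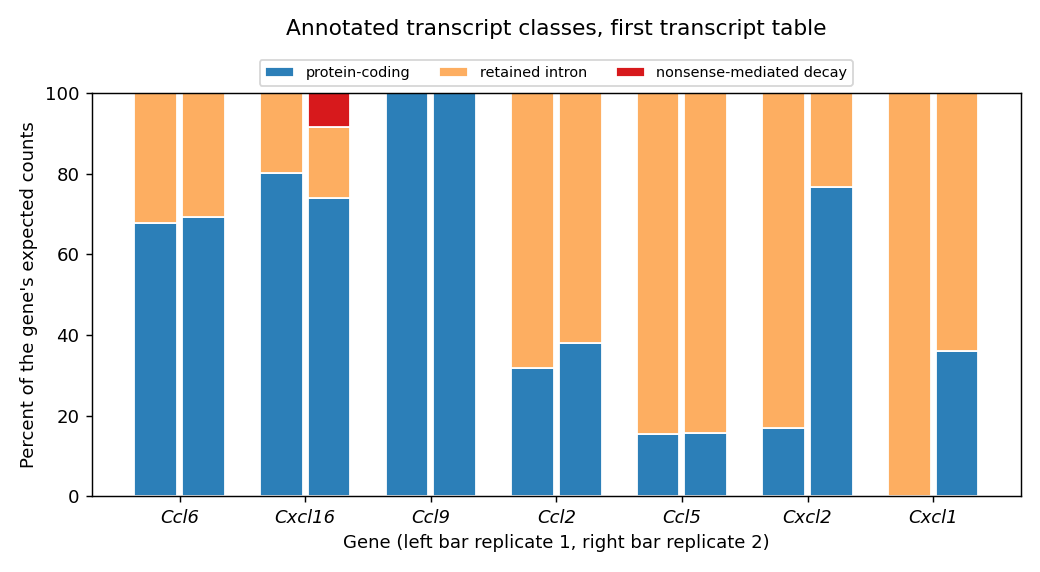
Percent of each gene's expected counts on protein-coding, retained-intron and nonsense-mediated decay transcripts in the first transcript table, for the 7 genes with more than 1 transcript. The left bar of each pair is replicate 1 and the right bar replicate 2; Ccl5 is near 84% retained intron in both, and Cxcl2 is 83.2% and 23.5% retained intron.

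The levels of several genes differed between the tables. The second transcript table, made from the reads by another kind of assignment, gave all 10 genes more counts in both libraries, and its totals were 1.75 and 1.74 times those of the gene table. In mean TPM, 4 of the 10 genes were at least 2-fold higher in it and none lower, against 27.2% of 12863 nuclear protein-coding genes that were 2-fold apart either way, and 26.9% that were higher. The median shift of those protein-coding genes was 0.37 on the log2 scale, and over annotated genes of every class the share 2-fold apart was 44.5%. The log2 difference, the second transcript table over the gene table, was 1.80 for Ccl9, 1.27 for Ccl3, 1.26 for Cxcl1 and 1.02 for Ccl5.

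Ccl3 and Ccl4 were the highest of the 10 in that table. Ccl3 had 28.5 and 53.5 TPM in the second transcript table, against 14.5 and 19.4 TPM in the gene table. Ccl4 had 25.1 and 46.3 TPM in the second transcript table, against 17.5 and 21.1 TPM in the gene table, a log2 difference of 0.89. TPM is scaled to a fixed sum, and miRNA entries took 41.2% and 16.8% of that sum in the second transcript table. In RPM, Ccl3 was 2.78 and 2.52 times, Ccl5 2.60 and 2.15 times and Ccl4 2.07 and 2.04 times as high in the second transcript table as in the gene table. These were 3 of the 9 genes with at least 10 counts, against 9.3% of protein-coding genes at least 2-fold higher in RPM. By the same measure Cxcl16 was 0.995 and 1.05 times, Ccl2 1.03 and 1.01 times and Ccl6 1.14 and 1.08 times as high.

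For Ccl9 the tables differed in the transcript that held the reads. In RPM it was only 1.35 and 1.37 times as high in the second transcript table, but that table placed 58.5 and 93.3 counts on Ccl9-202, a processed transcript of 398 bases that had none in the first transcript table. With so short a length those counts made up 11.7 and 19.6 of its 17.6 and 28.2 TPM. Its mean there, 22.9 TPM, was next to that of Ccl6, 22.5 TPM. Ccl9-201 alone had 5.91 and 8.58 TPM in the second transcript table, against 6.70 and 6.32 TPM in the gene table. The second transcript table gave Cxcl1 25 and 38 counts, against 1 and 10 in the gene table, and Cxcl2 24 and 48 against 21 and 31. All but Cxcl1 and Cxcl2, or 8 of the 10 genes, were at 1 TPM or more in both libraries by the second transcript table, against 55.5% of nuclear protein-coding genes.

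**Figure D4:**
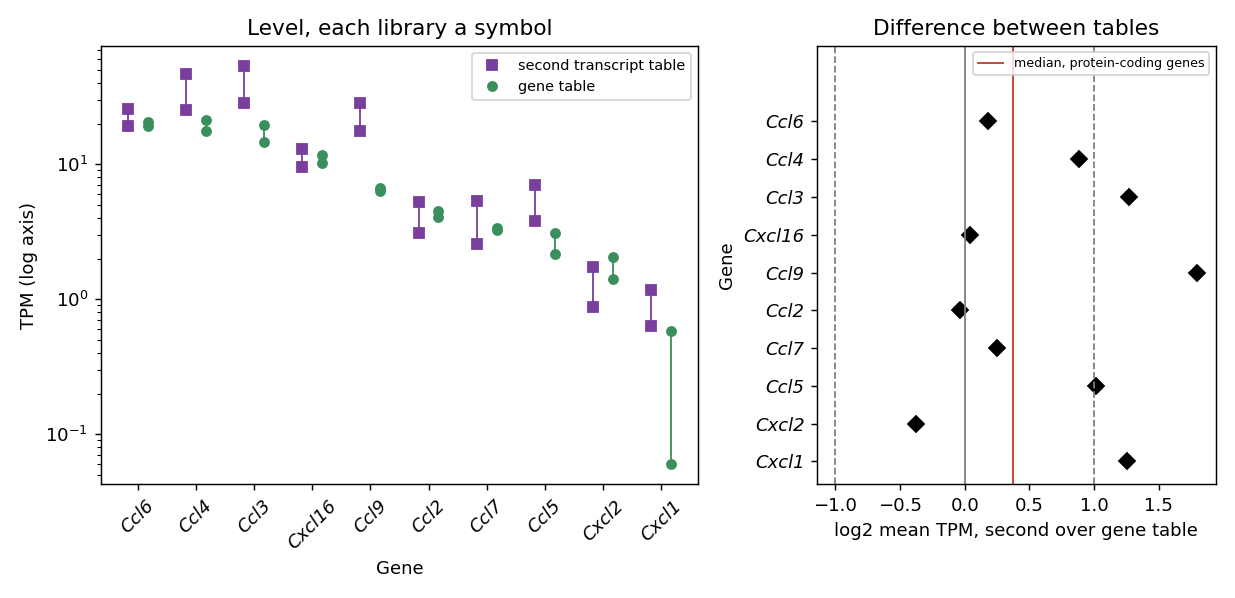
Left, TPM on a log axis in the second transcript table (squares) and the gene table (circles), a symbol for each library. Right, the log2 ratio of mean TPM, the second transcript table over the gene table, where Ccl9, Ccl3, Cxcl1 and Ccl5 lie past the dashed 2-fold line and the red line marks the median of protein-coding genes at 0.37.

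Most other chemokine ligand genes had almost no RNA in the gene table. Of 28 further ligands, 3 were detected, 14 had no count in either library, and the list median was 0 TPM. Of the 28, 8 (28.6%) were detected by the second transcript table, against 55.5% of nuclear protein-coding genes, and 6 had no count there. Ccl24 had 5.17 and 5.38 TPM in the second transcript table, against 0.09 and 0.19 TPM in the gene table. Cxcl10 had 0.77 and 4.11 TPM in the gene table, from 10 and 38 counts, and so was not counted as detected. Among paralogs of the members, Ccl12, which lies in the Ccl2 cluster, was given 1 and 9 counts by the second transcript table, against 0 and 1 by the gene table. Cxcl3, which shares sequence with Cxcl2, was given 30.6 and 38.6 counts by the second transcript table and none by the gene table. A count of 0 allows up to 3 counts by counting error, or 0.274 RPM in replicate 1 and 0.212 RPM in replicate 2.

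Ccl25, known as a thymic and gut chemokine that binds Ccr9, had the highest TPM of any ligand gene in the gene table, 32.1 and 30.97 TPM. Of its counts, 94.0% and 96.3% were on retained-intron transcripts. Ccl25-210, a single exon of 2549 bases (chromosome 8, 4332259 to 4334807), held 413 and 612 counts, and Ccl25-209, a single exon of 2461 bases (4325233 to 4327693), held 225 and 365.63. Its protein-coding transcripts held only 20 and 20.4 counts, or 2.72 and 1.88 TPM. The gene's first bases overlap Elavl1, on the opposite strand, which had 13.6 and 16.7 TPM. Pf4, a platelet chemokine also made by macrophages, had 12.0 and 3.50 TPM, from 28 and 12 counts, and Ccl27a, a skin chemokine, had 2.06 and 1.47 TPM.

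The cells also held RNA for some of the receptors of these ligands. Of 24 chemokine receptor and scavenging receptor genes, 8 were detected, and the list median was 0.378 ± 0.0177 TPM (SD, n = 2). Ccr1, a receptor of Ccl3, Ccl5, Ccl6 and Ccl9, had 3.46 and 3.63 TPM, and Cxcr6, the receptor of Cxcl16, had 5.91 and 5.62 TPM. Ccrl2, a receptor-like protein that presents chemoattractants without signalling, had 1.17 and 1.11 TPM. Ccr2, the receptor of Ccl2 and Ccl7, had 2.20 and 3.12 TPM in the second transcript table, against 0.34 and 0.43 TPM in the gene table. Cxcr2, the receptor of Cxcl1 and Cxcl2, had 2.64 and 3.99 TPM in the second transcript table, against 0.05 and 0.03 TPM in the gene table, so the tables put both receptors on opposite sides of 1 TPM. Ccr3 had 0.48 and 0.55 TPM, Ackr2, which scavenges inflammatory CC chemokines, had 0 and 0.07 TPM, and Ackr1 had no count in either table.

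RNA of genes that carry the receptor signal was detected throughout. All 14 of the listed G protein, kinase, arrestin and motility genes reached 1 TPM in both libraries, against 46.7% of nuclear protein-coding genes. The list median was 66.8 ± 1.17 TPM (SD, n = 2). The highest were Dock2, which activates Rac in leukocyte migration, at 284 and 273 TPM and Arrb2, an arrestin, at 233 and 216 TPM. The lowest were Gnai3, an inhibitory G protein subunit, at 6.74 and 5.94 TPM and Rac2 at 8.68 and 7.75 TPM, though the second transcript table gave Rac2 53.4 and 79.2 TPM. Of 15 inflammatory cytokine genes, 6 (40.0%) were detected, a share near that of all nuclear protein-coding genes. Their median was 1.32 ± 0.909 TPM by the second transcript table and 0.17 ± 0.0141 TPM by the gene table. In the gene table Il15 was the highest at 32.4 and 26.1 TPM (98.8 and 154 TPM by the second transcript table), followed by Il18 at 6.90 and 8.99 TPM, and Il12a, Csf2, Lta and Ifnb1 had no count. No gene was sought for a pattern like that of a member, since 2 libraries of 1 condition hold no pattern.

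**Figure D5:**
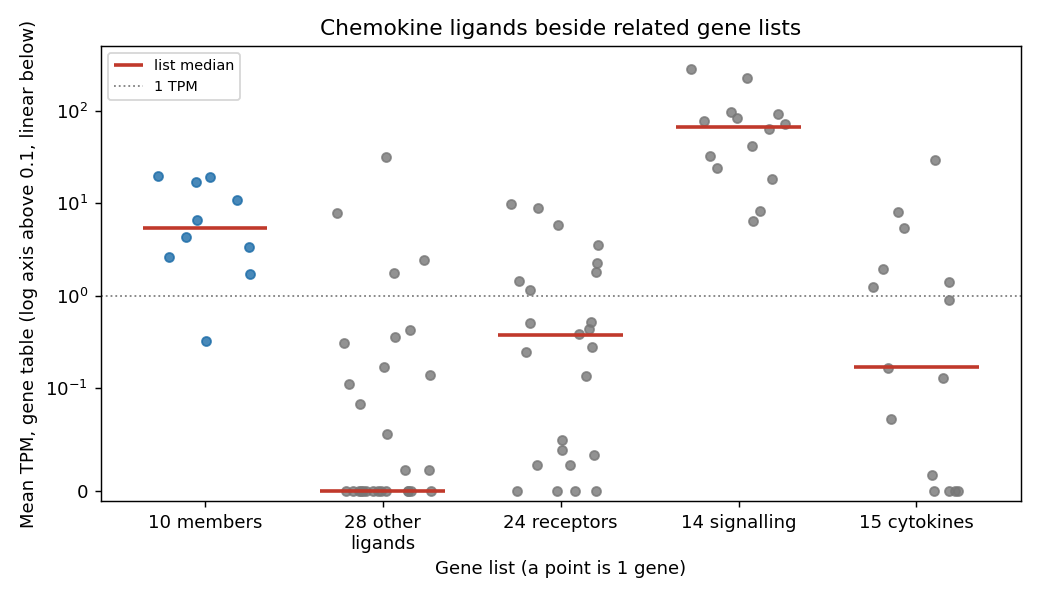
Mean TPM of both libraries in the gene table for the 10 members and 4 related gene lists, a point for each gene and a red line for the list median, on an axis that is logarithmic above 0.1 and linear below. The members' median is 5.39 TPM, that of the 28 other ligands 0, of the 24 receptors 0.378, of the 14 signalling genes 66.8 and of the 15 cytokines 0.17.

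The gene tables summed to 10970767 and 14207280 expected counts. The libraries differed by more than counting error, with a coefficient of variation beyond it of 0.0977, fitted to the 14576 genes that passed a count filter. All 11 macrophage markers were detected, with a summed 768 and 659 TPM, led by Csf1r and Lyz2. By the second transcript table, markers of monocytes summed to 3.52 and 5.11 TPM, of neutrophils to 5.31 and 6.92 TPM and of T and NK cells to 12.2 and 16.2 TPM. In the gene table these markers were lower: 0 of 5 monocyte markers were detected (0.51 and 0.61 TPM in sum), 0 of 8 neutrophil markers (1.54 and 0.23 TPM, with Ly6g, Mpo, Elane and Camp at 0) and 0 of 10 T and NK cell markers (0.20 and 0.06 TPM, 8 of them at 0), cells known to make Ccl5. No stromal (of 7), B cell (of 5) or mast cell and basophil (of 5) marker was detected. Of platelet markers 2 of 6 were, Pf4 and Itga2b (15.5 and 4.88 TPM in sum), of endothelial markers 2 of 6, Vwf and Kdr (53.8 and 53.4 TPM, with Cdh5 at 0), and of dendritic markers 1 of 6 (2.22 and 2.41 TPM). The part of these cells in the chemokine levels was not tested.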

How the data were processed

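Per the labels, the deposited tables are on mm10. The first transcript table and the gene table rest on alignments to GENCODE M21 transcripts, and the second on the reads themselves, per the notes deposited with them. Tool names and versions were not given in the sources used here. In the deposited tables an expected count is an estimate of reads, where a read with several matches is split among them. Deposited TPM values are such counts over effective length, scaled to 1e+06 in each table. The deposited TPM bounds were used as a score of unknown level, for description.

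Entries outside the annotation (0.338% and 0.27% of counts) were left out. From rounded counts, edgeR 4.0.16 gave TMM factors and, with an intercept as the design, the coefficient of variation. The latter is the square root of its common dispersion over genes that passed its count filter. DESeq2 1.42.0 gave size factors (R 4.3.3). Replicate ratios use TMM-scaled counts plus 0.5 with exact binomial 95% intervals, and table ratios use mean TPM plus 0.1. Without molecular identifiers reads are not independent molecules, so intervals and floors hold for counting error alone. Stretches of 31 bases were compared with all annotated transcripts. Promoters are RefSeq's. The rest was done in Python 3.11.15 with numpy 2.4.6, pandas 2.3.3, scipy 1.17.1 and matplotlib 3.10.9.

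The members, the lists, the thresholds and the rule for named genes (detected or sequence-sharing ligands, the members' receptors, the 2 highest and 2 lowest of longer lists, and neighbours) were chosen with earlier results of these data known. Elavl1, Ccl24, Cxcl10 and the markers were named outside that rule. Not every gene that this rule takes is reported here.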

Additional observations from a re-analysis of the deposited data

How the results depend on the processing

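The number of detected genes, 9, was 8 at a threshold of 2 TPM and 8 in the second transcript table, and 9 at 0.5 TPM, by the posterior mean TPM and in either library alone. The median of the 10 genes, 5.39 TPM, was 8.34 TPM in the second transcript table, 5.46 TPM by the posterior mean and 21.3 TPM when TPM was rescaled to nuclear protein-coding genes. It lay between 5.375 and 5.41 TPM without either replicate. No gene passed 2-fold between replicates under DESeq2 size factors, library size alone or a prior count of 5, and with no minimum of counts 1 did, Cxcl1. The number of genes at least 2-fold apart between tables, 4, was 2 on log2(TPM + 1) and 2 with TPM rescaled to nuclear protein-coding genes. It was 6 in counts, 4 in RPM, and 3 to 4 without either replicate. The comparisons in RPM, on rescaled TPM and without a replicate were added after seeing the data. In counts, the median nuclear protein-coding gene averaging at least 10 counts was 1.77 times as high in the second transcript table in both libraries. No share over all genes is given here for the changed settings of detection or table comparison, so these numbers describe the members alone. Among single genes, the replicate ratio changed sign for Ccl6 by library size alone and for Ccl9 by DESeq2 size factors, library size alone and the second transcript table, each from a value within its counting interval of 0. Of the 7 shares on non-coding transcripts, 5 moved by more than the spread between replicates in the second transcript table, and 4 when taken in counts. The cause of each difference was not tested. No paired analysis was possible because both libraries belong to the same group. Depth limits Cxcl1, Ccl5, Ccl7 and Cxcl2 most, with 1 to 31 expected counts per library.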
